A study of Mus musculus with 6 samples.

Results

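The 10 genes described here encode enzymes of glycolysis, the cytosolic pathway that splits glucose into pyruvate, together with the lactate dehydrogenase subunit that turns pyruvate into lactate. The genes are Hk1, Hk2, Gpi1, Pfkl, Aldoa, Tpi1, Pgk1, Eno1, Pkm and Ldha. They were taken by symbol from a table of 23992 gene symbols, and where a symbol had several transcript rows the row with the highest summed count over the 6 libraries was kept. All 10 were in the table and all 10 passed the filter on low counts, which left 12720 tested genes.

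Glycolysis starts with a phase that spends ATP, in which hexokinase traps glucose in the cell and phosphofructokinase sets the pace, and ends with a phase that yields ATP and pyruvate. Activated T cells raise glycolysis under control of the transcription factors HIF1A and MYC and of mTORC1, and regulatory T cells (Treg cells, CD4 T cells that express Foxp3 and dampen immunity) are known to rely on it less than effector T cells do. RNA levels of the enzymes are not a measure of flux through the pathway.

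RNA was sequenced from sorted mouse Treg cells in 2 groups of 3 libraries. KO libraries came from Foxp3YFP-Cre/YCrlf2fl/fl mice, in which Cre recombinase driven by Foxp3 acts on a floxed Crlf2, the gene for the TSLP-specific receptor subunit, and WT libraries came from Foxp3YFP-Cre/Y mice. Both groups carry the Foxp3YFP-Cre allele and the CD45.2 marker, and both were sorted as live CD4+YFP+ cells of lymph nodes and spleen, which were pooled, per the labels. The labels also describe sorted naive CD4 T cells of CD45.1 mice, which are not a group of these libraries. Ages are not stated, nor is it stated that each library is a separate animal, so the p-values cover no more than the spread among the libraries at hand, which may be technical. Titles and genotype tags gave the groups; the strain given in each description is the opposite one, and the name of the deposited table mentions lung. The title of the series names the question, whether TSLP acting on Treg cells keeps their identity and limits allergic inflammation.

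Library totals were 9649601, 11583969 and 18352401 counts in KO replicates 1 to 3, and 7971181, 1439736 and 12180569 counts in WT replicates 1 to 3. Crlf2 had 6.44 ± 2.76 CPM (counts scaled to a common library size, here by the trimmed mean of M values, TMM) in KO and 114.5 ± 27.7 CPM in WT (mean ± SD, n = 3 each). The KO values were far below the WT values, with a log2 difference of -4.16 (SE 0.36) and an edgeR adjusted p of 0.0047, which goes with the titles. When the share of lung epithelial markers was added as a covariate the log2 difference was -3.95 with an adjusted p of 0.0554, and edgeR then called 0 genes of the table (1129 at an unadjusted p under 0.05). The libraries also held RNA of other cell types. Erythroid markers (7 of 12 tested) took 0.192% to 0.284% of all KO reads, beside 0.171%, 0.686% and 14.5% of those of WT replicates 1 to 3, and lung epithelial markers (11 of 12 tested) took 0.242% to 1.97% in KO, against 7.58%, 1.71% and 2.21% for WT replicates 1 to 3. Macrophage and monocyte markers (11 of 13 tested) took 0.259% to 0.280% in KO, against 0.0378%, 0.0782% and 0.715% for WT replicates 1 to 3. Neutrophil markers (4 of 9 tested, Mpo and Elane at 0) reached 0.0505% in WT replicate 3 and at most 0.00595% elsewhere, and B cell markers (4 of 6 tested) reached 0.0323% in WT replicate 3 and at most 0.00303% elsewhere. Endothelial and stromal markers (5 of 10 tested) stayed between 0.00822% and 0.0136% and markers of CD8 T cells and NK cells (1 of 5 tested) between 0.000943% and 0.0111%. The defining Treg and T cell markers (8 of 8 tested, Foxp3 among them) took 0.387% to 0.400% in KO, against 0.331%, 0.363% and 0.166% for WT replicates 1 to 3. WT replicate 3 thus stood apart in most of these lists. In bulk RNA, fewer cells of a type and less RNA per cell cannot be told apart.

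None of the 10 glycolytic enzymes was called in KO against WT at an edgeR adjusted p under 0.05, where 1.74% of all tested genes (221 of 12720) were called. DESeq2 and limma-voom also called none of them. At an unadjusted p under 0.05 edgeR had 2 of 10, Hk2 and Aldoa, where 15.9% of all tested genes lay under that value; DESeq2 had 2 and limma-voom 1. The log2 fold changes were positive for 2 enzymes and negative for 8, with a median of -0.13 against a median of -0.04 over all tested genes. With libraries scaled to pan-T cell genes in place of TMM, the median of all genes was at -0.32 and that of the enzymes at -0.38, with 1 positive and 9 negative, and the calls over all genes split into 26 higher and 140 lower in place of 96 and 125. The median size of the difference, sign ignored, was 0.18 on the log2 scale for the enzymes and 0.30 for all tested genes. It was 0.19 for the 4061 tested genes with a mean of at least 50 CPM, a level that all enzymes but Hk2 reached. The enzymes were thus close to those genes in this respect, a set with a lower bound on level that is not matched to the enzymes further. Together the 10 transcripts took 0.558%, 0.527% and 0.587% of the counts in KO replicates 1 to 3, and 0.539%, 0.565% and 0.460% in WT replicates 1 to 3. The groups overlapped in this share, and its lowest value was in WT replicate 3.

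**Figure D1:**
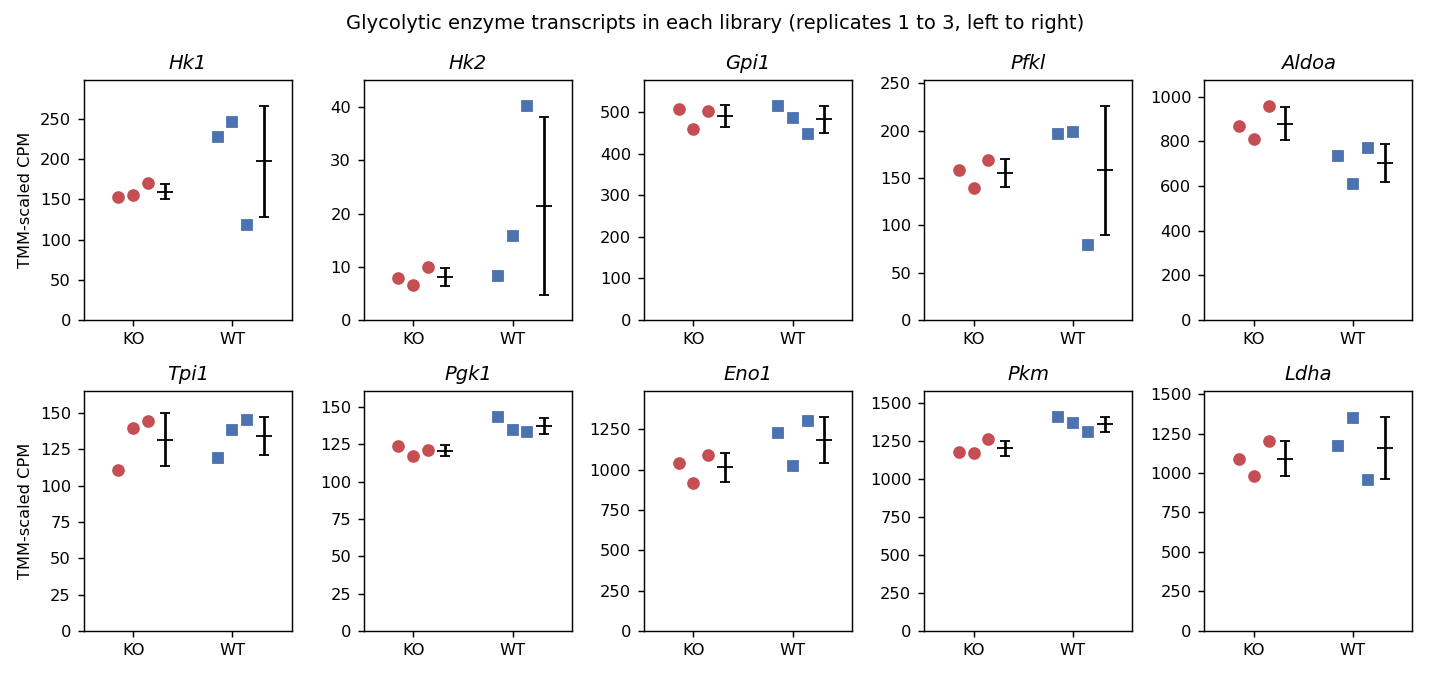
TMM-scaled CPM of each glycolytic enzyme, 1 panel per gene with its own axis from 0; circles are the KO libraries and squares the WT libraries, replicates 1 to 3 from left to right, and the black bar gives the mean and SD of each group (n = 3). The KO libraries lie close together in most panels, whereas WT replicate 3 is the lowest library for Hk1, Gpi1, Pfkl and Ldha and the highest for Hk2, Tpi1 and Eno1.

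Levels between genes are compared here per length, as RPKM, the TMM-scaled CPM divided by the transcript's length in kilobases. Ldha was highest with 693 ± 91.5 RPKM, followed by Eno1 with 620 ± 80.0, Pkm with 526 ± 39.9 and Aldoa with 498 ± 75.8 RPKM (SD over all 6 libraries). Within these 4, each gene's range over the 6 libraries overlapped with that of the next lower one. Gpi1 (170.1 ± 9.52 RPKM) lay apart from Aldoa above it and from Tpi1 below it. Tpi1 (83.1 ± 8.99 RPKM) overlapped with Pgk1 (71.6 ± 5.53 RPKM), and Hk1 (42.9 ± 11.7 RPKM) with Pfkl (42.1 ± 11.9 RPKM). Hk2 was far below the rest with 2.68 ± 2.34 RPKM. Of the 10, the 3 lowest were thus Hk1, Pfkl and Hk2, genes of the hexokinase and phosphofructokinase steps. This is an order of single genes and not of steps, since isozymes outside the 10 share these reactions. Pfkp, which is not among the 10, made up 54.3% of the phosphofructokinase family per length in KO and 59.0% in WT (means).

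The 2 hexokinases differed in level and in pattern. Hk1 (chromosome 10, 62268855 to 62379920, minus strand, RefSeq GRCm38.p6, the assembly behind mm10) encodes the housekeeping hexokinase bound to mitochondria. It had 153, 156 and 170.0 CPM in KO replicates 1 to 3, and 228, 246 and 118 CPM in WT replicates 1 to 3. The KO libraries lay between WT replicate 3 and the other WT libraries, so the groups overlapped. The log2 fold change was -0.30 (SE 0.25, 95% interval -0.87 to 0.28, edgeR adjusted p = 0.619). Without WT replicate 3 it was -0.56 (SE 0.12, edgeR adjusted p = 0.0425; range 0.0425 to 0.896 over the 16 alternatives), the single alternative in which an enzyme of the 10 was called. Reads of Hk1os, an antisense transcript that overlaps Hk1, cannot be told apart from Hk1 reads where they share exons, because the handling of strand is not given.

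Hk2 (chromosome 6, 82725025 to 82774454, minus strand) encodes the inducible hexokinase, a target of HIF1A that activated T cells and myeloid cells raise. It had 7.89, 6.56 and 9.87 CPM in KO replicates 1 to 3, and 8.29, 15.7 and 40.3 CPM in WT replicates 1 to 3. WT replicate 3 stood far above all other libraries, and WT replicate 1 lay inside the KO range. The log2 fold change of -1.42 (SE 0.54, 95% interval -2.67 to -0.18, edgeR adjusted p = 0.254) became -0.50 (SE 0.43) without WT replicate 3. That library also had the highest shares of erythroid (14.5%), macrophage and monocyte (0.715%), neutrophil (0.0505%) and B cell (0.0323%) markers and the lowest share of Treg markers (0.166%). The part of those cells in the Hk2 value was not tested.

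Between hexokinase and the split of the sugar lie Gpi1, Pfkl and Aldoa. Gpi1 (chromosome 7, 34201327 to 34230336, minus strand) encodes the isomerase that turns the glucose phosphate into the fructose phosphate. It had 508, 459 and 501 CPM in KO, and 514, 484 and 448 CPM in WT (replicates 1 to 3 each). The groups overlapped almost fully, with a log2 fold change of 0.02 (SE 0.10, 95% interval -0.22 to 0.26), that is a ratio of KO to WT between 0.860 and 1.20. Gpi1 was below 0 when scaled to pan-T genes (-0.23) and without WT replicate 3 (-0.03).

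Pfkl (chromosome 10, 77986947 to 78009807, minus strand) encodes the liver-type subunit of phosphofructokinase, the main control point of the pathway. It had 158, 139 and 168 CPM in KO replicates 1 to 3, and 196, 198 and 79.0 CPM in WT replicates 1 to 3. As for Hk1, all KO libraries lay between WT replicate 3 and the other WT libraries. Its log2 fold change of -0.01 (SE 0.32) was -0.34 (SE 0.13, edgeR adjusted p = 0.208) without WT replicate 3 and 0.25 with limma-voom, and its sign matched the full edgeR fit in 8 of 16 alternatives, so no direction can be given for Pfkl. The part of the other cells' RNA in WT replicate 3 in the Hk1 and Pfkl values was not tested either.

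Aldoa (chromosome 7, 126795234 to 126800994, minus strand) encodes the aldolase that splits the phosphorylated sugar. It had 869, 809 and 959 CPM in KO, and 732, 607 and 770.0 CPM in WT (replicates 1 to 3 each). Every KO library was above every WT library, and Aldoa was the single enzyme of the 10 with this order, which 10.4% of all tested genes shared. The log2 fold change was 0.32 (SE 0.13, 95% interval 0.03 to 0.61, edgeR adjusted p = 0.263), which does not pass the test, and it was 0.03 when scaled to pan-T genes. Tpi1 (chromosome 6, 124810586 to 124814158, minus strand) encodes the isomerase that interconverts both products of aldolase. It had 111, 140 and 145 CPM in KO and 119, 138 and 145 CPM in WT (replicates 1 to 3 each), with a log2 fold change of -0.03 (SE 0.15, 95% interval -0.37 to 0.32). The groups overlapped over nearly their whole range. Tpi1 overlaps Spsb2 in the annotation, and reads of shared positions could be counted for both.

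The enzymes that yield ATP, Pgk1 and Pkm, were the 2 whose KO libraries all lay below all WT libraries, an order found in 11.5% of all tested genes. Pgk1 (chromosome X, 106187100 to 106203699, plus strand) encodes phosphoglycerate kinase. It had 124, 117 and 121 CPM in KO, and 144, 135 and 133 CPM in WT (replicates 1 to 3 each). The log2 fold change was -0.19 (SE 0.12, 95% interval -0.45 to 0.08, edgeR adjusted p = 0.496). Pkm (chromosome 9, 59656576 to 59679372, plus strand), the gene of muscle-type pyruvate kinase, had 1179, 1167 and 1258 CPM in KO and 1406, 1365 and 1307 CPM in WT (replicates 1 to 3 each). Its log2 fold change was -0.18 (SE 0.09, 95% interval -0.39 to 0.04, edgeR adjusted p = 0.411). Neither passed the test. Both kept a negative sign in 16 of 16 alternatives, which refit the same libraries and so are no separate support. Hk1, Hk2 and Eno1 also stayed negative in all 16, and Aldoa stayed positive in all 16. In both directions together, 3 of the 10 enzymes had groups that did not overlap, beside 22% of all tested genes.

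Eno1 (chromosome 4, 150236708 to 150248879, plus strand) encodes enolase, which makes phosphoenolpyruvate. It had 1041, 916 and 1090 CPM in KO, and 1226, 1026 and 1306 CPM in WT (replicates 1 to 3 each). WT replicate 2 lay inside the KO range, and the log2 fold change was -0.22 (SE 0.13, 95% interval -0.51 to 0.06, edgeR adjusted p = 0.441). Ldha (chromosome 7, 46842274 to 46855627, plus strand) encodes the lactate dehydrogenase subunit of lactate-producing cells. It had 1091, 979 and 1202 CPM in KO, and 1173, 1351 and 957 CPM in WT (replicates 1 to 3 each). The KO libraries lay within the WT range, and the log2 fold change was -0.09 (SE 0.15, 95% interval -0.42 to 0.25, edgeR adjusted p = 0.821), with a positive value of 0.05 without WT replicate 2. Genomes of mammals hold many processed copies of glycolytic genes, and how reads that map to several places were counted is not given.

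**Figure D2:**
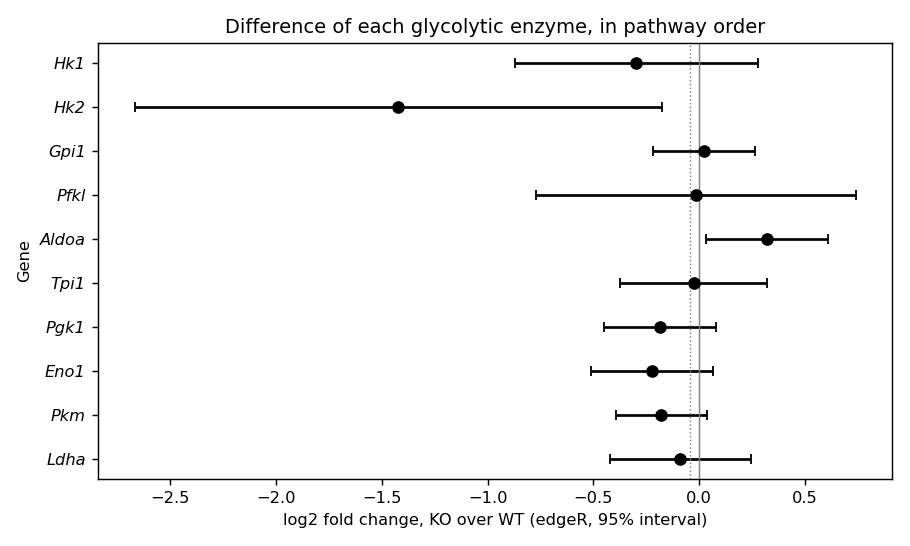
Log2 fold change of KO over WT for each glycolytic enzyme in pathway order, with the 95% interval from edgeR; the solid line marks 0 and the dotted line the median of all tested genes. The intervals of Gpi1, Tpi1, Pgk1, Eno1, Pkm and Ldha run from -0.51 (Eno1) at the lowest to 0.32 (Tpi1) at the highest, whereas those of Hk1, Hk2 and Pfkl are wide.

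The intervals differ in what they leave possible. For Gpi1, Tpi1, Pgk1, Eno1, Pkm and Ldha the lowest bound was a ratio of KO to WT of 0.701 (Eno1) and the highest 1.25 (Tpi1). For Aldoa the ratio lay between 1.02 and 1.52, for Hk1 between 0.547 and 1.21, and for Pfkl between 0.586 and 1.67. For Hk2 it lay between 0.157 and 0.886. These intervals are not adjusted for the number of genes tested, and neither Aldoa nor Hk2 passed the adjusted test. Without WT replicate 3 the log2 fold change of Hk2 was -0.50 (SE 0.43). The spread was larger in WT than in KO for 8 of the 10 enzymes, as it was for 2908 of the 4061 tested genes with a mean of at least 50 CPM. The median coefficient of variation of the enzymes was 8.72% in KO and 12.2% in WT, beside 9.58% in KO and 15.7% in WT for those 4061 genes.

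Deposited transcript rows allowed a look at Pkm splicing. The pyruvate kinase isoforms M2, the form of proliferating and immune cells, and M1, the form of adult muscle and brain, differ by a choice between a pair of exons of equal length in the Pkm gene. Both exons are shown because the deposited rows of Pkm differ by them: row NM_011099 holds the downstream exon (M2) and row NM_001253883 the upstream exon (M1). The sequences are from the GENCODE M21 transcripts on GRCm38, 167 bases each, written 5′ to 3′, with capitals at the 64 positions where they differ.
Pkm exon of NM_011099 (chr9:59675568-59675734, plus strand): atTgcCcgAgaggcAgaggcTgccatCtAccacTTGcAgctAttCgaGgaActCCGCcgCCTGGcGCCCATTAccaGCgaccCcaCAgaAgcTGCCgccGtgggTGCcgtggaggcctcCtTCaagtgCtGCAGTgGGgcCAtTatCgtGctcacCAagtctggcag
Pkm exon of NM_001253883 (chr9:59675029-59675195, plus strand): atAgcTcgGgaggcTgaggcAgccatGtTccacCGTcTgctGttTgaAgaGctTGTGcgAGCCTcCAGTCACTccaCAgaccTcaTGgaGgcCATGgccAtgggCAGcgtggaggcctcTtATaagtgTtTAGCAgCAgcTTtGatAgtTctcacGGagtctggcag

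The exons are identical at 103 of 167 positions (61.7%). KO replicates 1 to 3 held 12110, 14580 and 24099 reads for row NM_011099, and WT replicates 1 to 3 held 10511, 1995 and 13820. For row NM_001253883 the KO libraries held 11197, 13427 and 22278 reads, and the WT libraries 9619, 1869 and 12718. The M2 row was thus the higher in each of the 6 libraries. The rows repeat the reads of the exons they share, so only their difference bears on the choice of exon. In the GENCODE transcripts 3 exons of each, the printed one among them, have a start or end that the other lacks. The difference between the rows may thus not come from the printed exons alone. It came to 7.54%, 7.91% and 7.56% of the M2 row in KO (7.67% ± 0.208, SD, n = 3), and 8.49%, 6.32% and 7.97% in WT (7.59% ± 1.13, SD, n = 3). The group means differed by less than the spread between WT libraries. The lowest value was in WT replicate 2, whose difference rested on 126 reads. The other enzymes with several rows were Hk1, Aldoa and Ldha. Row NM_001177308 of Aldoa had 92.7% ± 0.606 of the kept row's reads in KO and 92.4% ± 0.879 in WT, and row NM_010438 of Hk1 had 94.7% ± 0.401 in KO and 94.7% ± 2.75 in WT (mean ± SD, n = 3 each). The Hk1 and Aldoa groups overlapped. Row NR_102727 of Ldha had 88.8%, 89.9% and 88.9% of the kept row in KO replicates 1 to 3, and 90.6%, 90.3% and 90.6% in WT replicates 1 to 3. Row NM_001136069 of Ldha had 90.5%, 90.6% and 91.4% of the kept row in KO replicates 1 to 3, and 90.4%, 87.6% and 90.3% in WT replicates 1 to 3. The KO libraries were thus all below the WT libraries for NR_102727 and all above them for NM_001136069, by gaps smaller than the spread within the wider group, and neither was tested.

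Isozymes encoded by other genes share these reactions, and their shares of each family were compared per length. In the hexokinase family Hk1 made up 84.2%, 77.6% and 84.9% in KO replicates 1 to 3, and 91.3%, 93.5% and 61.0% in WT replicates 1 to 3. Hk2 made up 3.28%, 2.46% and 3.72% in KO, against 2.51%, 4.51% and 15.7% in WT (replicates 1 to 3 each). Hk3, the hexokinase of myeloid cells, made up 12.5%, 19.9% and 11.4% in KO, against 5.81%, 2.01% and 23.3% in WT (replicates 1 to 3 each). WT replicate 3 thus had the lowest share of Hk1 and the highest shares of Hk2 and Hk3, and it also had the highest share of macrophage and monocyte markers, 0.715% of its counts. The KO libraries had the next highest shares of both Hk3 and those markers, with WT replicates 1 and 2 below them, but the part of myeloid RNA in these shares was not tested.

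The phosphofructokinase family showed the same library apart. Pfkl made up 43.2%, 41.0% and 41.6% of the phosphofructokinase family in KO, against 43.7%, 45.6% and 24.2% in WT (replicates 1 to 3 each), the rest being mainly Pfkp, the platelet-type subunit. Eno1 made up 99.0% ± 0.113 of the enolase family in KO and 98.1% ± 1.40 in WT (mean ± SD, n = 3 each). Ldha made up 87.1%, 84.8% and 94.5% of the lactate dehydrogenase family in KO replicates 1 to 3, and 66.3%, 89.2% and 86.2% in WT replicates 1 to 3. The low Ldha share of WT replicate 1 went with Ldhb, the subunit of heart and resting lymphocytes, which had 128, 139 and 55.2 CPM in KO replicates 1 to 3 and 474, 130.01 and 118 CPM in WT replicates 1 to 3. Lung epithelial markers were also highest in WT replicate 1 (7.58% of the counts) and lowest in KO replicate 3 (0.242%), the libraries with the highest and lowest Ldhb. Their part in the Ldhb value was not tested, and Ldhb and Pfkp were picked after their values were seen. Pklr, Pgk2 and Hkdc1 had a count of 0 in each library.

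**Figure D3:**
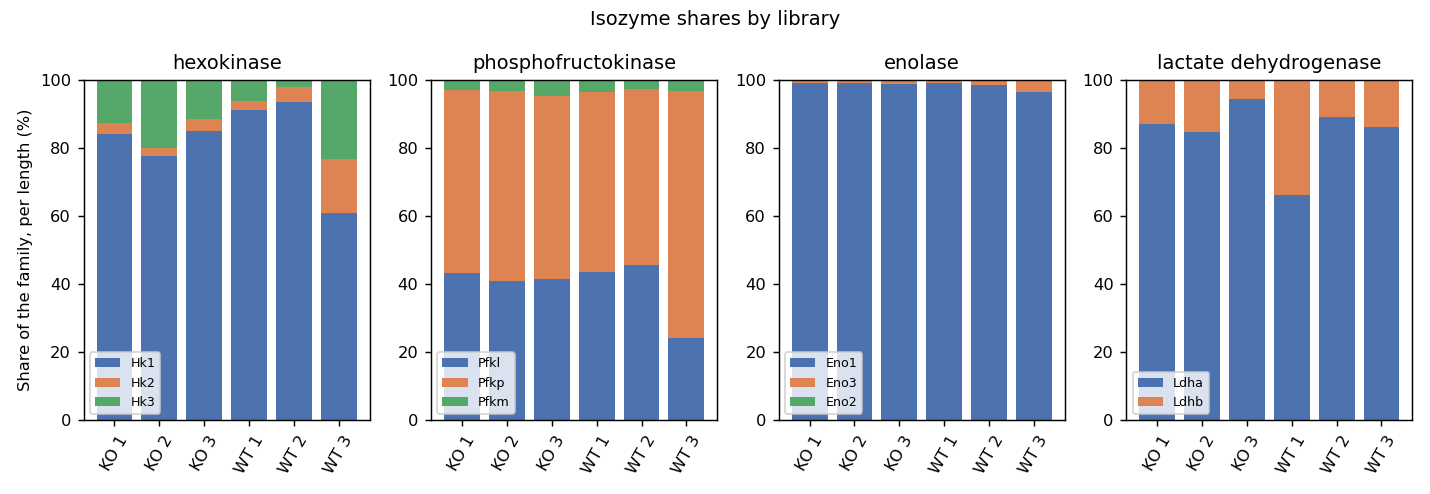
Share of each isozyme in its family, in percent of the family's length-scaled reads, stacked for each library with the KO libraries at the left and the WT libraries at the right. WT replicate 3 has the lowest Hk1 share (61.0%) and the lowest Pfkl share (24.2%), and WT replicate 1 has the lowest Ldha share (66.3%).

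Of 20 further glycolysis genes, 13 were tested and none was called by edgeR or limma-voom. DESeq2 called 1, Eno2, beside 863 of all 12720 tested genes. An unadjusted edgeR p under 0.05 was reached by 3, beside 15.9% of all tested genes. Their median log2 fold change was 0.02, with 7 positive and 6 negative. Gapdh, the dehydrogenase between Tpi1 and Pgk1, had 356, 393 and 434 CPM in KO, and 472, 517 and 445 CPM in WT (replicates 1 to 3 each). Like Pgk1 and Pkm, it was lower in each KO library than in each WT library and did not pass the test (log2 fold change -0.28, SE 0.12, edgeR adjusted p = 0.305). Pgam1, the mutase before enolase, had 163 ± 6.82 CPM in KO and 160 ± 21.8 CPM in WT (mean ± SD, n = 3 each), and Aldoc, the brain-type aldolase, had 16.4 ± 3.40 CPM in KO and 9.24 ± 3.48 CPM in WT (log2 fold change 0.80, SE 0.36, edgeR adjusted p = 0.330). Eno3, the muscle-type enolase, had 7.21, 6.004 and 8.88 CPM in KO, and 9.49, 13.0 and 42.5 CPM in WT (replicates 1 to 3 each), with WT replicate 3 on top as for Hk2.

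Eno2, the neuron-type enolase, came closest to a call among the enzymes tested. KO replicates 1 to 3 held 19, 28 and 57 of its reads, beside 0, 0 and 1 for WT replicates 1 to 3. The ratio of summed reads, scaled to library size, was 48.4 (exact 95% interval 8.50 to 1930, counting error only). The edgeR adjusted p was 0.0535, just above the threshold, and DESeq2 called it (adjusted p = 0.0225; range 0.0225 to 0.323 over the alternatives). Its level was low, 1.85, 2.24 and 2.98 CPM in KO replicates 1 to 3, and the limit that a count of 0 allows in the shallow WT replicate 2 is 2.05 CPM, so that library could not show a difference from KO replicate 1. Eno2 made up 0.155% ± 0.0326 of the enolase family in KO.

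Regulators of the pathway included 23 tested genes, of which edgeR called none, limma-voom 1 and DESeq2 4. Over all 12720 tested genes edgeR called 221, limma-voom 309 and DESeq2 863. An unadjusted edgeR p under 0.05 was reached by 2 positive and 4 negative regulators, beside 857 positive and 1161 negative ones of all tested genes. Hif1a, the hypoxia-inducible factor subunit that activates glycolytic genes, had 443, 435 and 457 CPM in KO, and 545, 529 and 343 CPM in WT (replicates 1 to 3 each), again with WT replicate 3 lowest. Myc, an activator of Ldha and Hk2, had 59.0, 64.8 and 49.3 CPM in KO, and 128, 84.2 and 127 CPM in WT (replicates 1 to 3 each). Every KO library was below every WT library. The log2 fold change was -0.99 (SE 0.20, 95% interval -1.44 to -0.54), the edgeR adjusted p of 0.0515 missed the threshold, and Myc was called in 3 of 16 alternatives, with adjusted p from 0.000351 to 0.395. Max, the partner of MYC on DNA, had a log2 fold change of -0.52 (SE 0.12) at an edgeR adjusted p of 0.0864 and Mxd1, which competes with MYC for MAX, of -1.03 (SE 0.22, edgeR adjusted p = 0.0621). Mxd1 was called in 4 of 16 alternatives, among them DESeq2, scaling to pan-T genes and the fit without WT replicate 3, with adjusted p from 0.000227 to 0.396. Mlxip, a glucose-sensing factor that pairs with Mlx, had 202 ± 23.1 CPM in KO and 133 ± 25.7 CPM in WT (mean ± SD, n = 3 each), which gave 0.61 on the log2 scale (SE 0.17, edgeR adjusted p = 0.134).

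Of the genes that carry glucose and lactate across the membrane, 7 of 8 were tested and edgeR called none, nor did DESeq2 and limma-voom. An unadjusted edgeR p under 0.05 was reached by 1, beside 15.9% of all tested genes. Slc2a1, the main glucose transporter of activated T cells, had 66.5 ± 8.96 CPM in KO and 55.3 ± 22.7 CPM in WT, and Slc2a3, a high-affinity glucose transporter, had 86.6 ± 5.76 CPM in KO and 65.6 ± 12.0 CPM in WT (mean ± SD, n = 3 each), with a log2 fold change of 0.42 for Slc2a3 (SE 0.16, edgeR adjusted p = 0.268). Slc2a6 had 7.59, 16.6 and 12.2 CPM in KO, and 10.8, 15.1 and 79.5 CPM in WT (replicates 1 to 3 each), once more with WT replicate 3 apart.

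The routes that leave glycolysis had no called gene by edgeR. Over all tested genes the median log2 fold change was -0.04, and 1161 of 12720 were negative with an unadjusted edgeR p under 0.05. All 8 genes of the pentose phosphate pathway were tested, their median log2 fold change being -0.30, with 2 at an unadjusted p under 0.05, both negative. They were Pgd, the phosphogluconate dehydrogenase (-0.67, SE 0.21, edgeR adjusted p = 0.164), and Taldo1, transaldolase (-0.41, SE 0.16, edgeR adjusted p = 0.251). Among 14 genes between pyruvate and acetyl-CoA the median was -0.28, with Mpc1, a subunit of the mitochondrial pyruvate carrier, at -0.56 (SE 0.19) and Pdhx, a component of pyruvate dehydrogenase, at -0.79 (SE 0.27). Both had an unadjusted p under 0.05. The 19 genes of the TCA cycle had a median of 0.01, with 10 positive and 9 negative; Fh1, fumarase, was at -0.64 (SE 0.22, edgeR adjusted p = 0.202), the 1 with an unadjusted p under 0.05. Side branches and gluconeogenesis (17 of 20 tested) had a median of -0.27, and Pgm2, a phosphoglucomutase gene, was at -0.57 (SE 0.19, edgeR adjusted p = 0.182). DESeq2 called Pgd of these lists, beside 863 of all tested genes.

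Genes outside glycolysis that HIF1A is known to induce did include calls. Of 18 tested, 2 were called higher in KO by edgeR and none lower, beside 0.755% of all tested genes called higher. The list as a whole was mixed, with a median log2 fold change of 0.08, 11 positive and 7 negative. Every KO library lay above every WT library for 4 genes and below for 2, beside 10.4% and 11.5% of all tested genes. Ero1l, an oxidase of the endoplasmic reticulum, rose to 95.1, 83.9 and 94.2 CPM in KO replicates 1 to 3, against 43.7, 52.7 and 50.04 CPM in WT replicates 1 to 3. Its log2 fold change was 0.91 (SE 0.15) at an edgeR adjusted p of 0.0288. Ddit4, an inhibitor of mTORC1, rose to 160.5, 111 and 133 CPM in KO, against 68.6, 80.7 and 64.2 CPM in WT (replicates 1 to 3 each), with a log2 fold change of 0.93 (SE 0.17) at an edgeR adjusted p of 0.0451. Ndrg1, a stress-responsive gene, had 87.2 ± 17.8 CPM in KO and 42.1 ± 10.1 CPM in WT and did not pass (log2 fold change 1.03, SE 0.22, edgeR adjusted p = 0.0658), though DESeq2 called it, and Bnip3, a mitophagy receptor gene, had a log2 fold change of -0.83 (SE 0.38). The calls of Ero1l and Ddit4 were lost when scaled to pan-T genes, where the log2 fold changes were 0.62 and 0.67. They were also lost with the lung epithelial covariate (0.81 and 0.89), and each time a single library other than WT replicate 3 was left out, with values of 0.84 to 0.97 for Ero1l and 0.79 to 1.06 for Ddit4. Without robust estimation Ddit4 had an adjusted p of 0.0533. Glucocorticoids and other stress signals are also known to induce Ddit4.

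**Figure D4:**
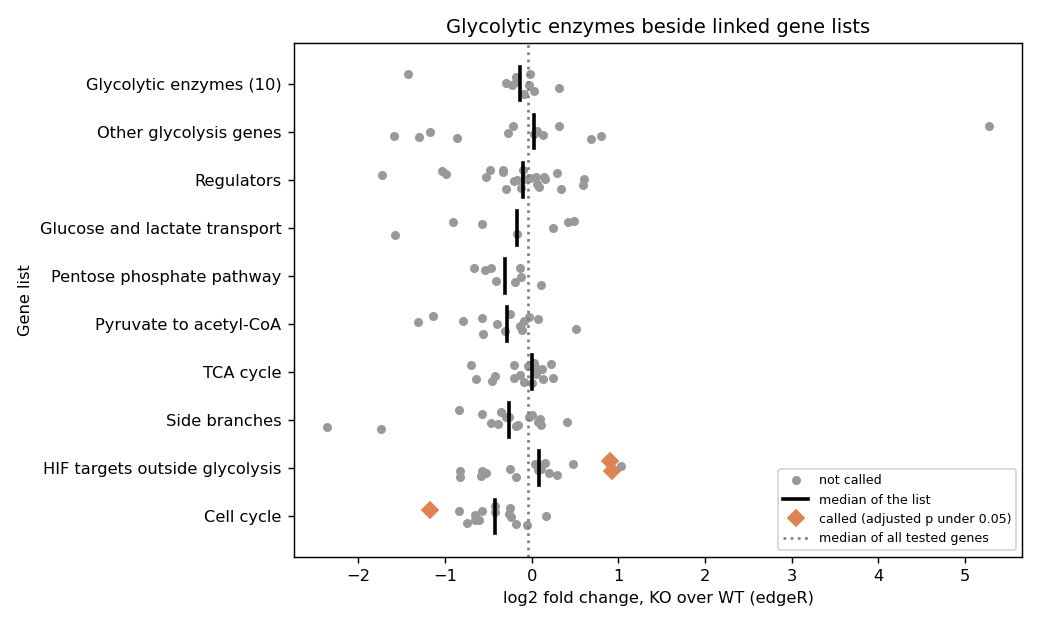
Log2 fold change of KO over WT (edgeR) for the glycolytic enzymes and for linked gene lists; each point is a tested gene, diamonds are called genes, the black bar is the list's median and the dotted line the median of all tested genes. The enzymes lie around their median of -0.13 apart from Hk2 at -1.42, and the called genes are Ero1l and Ddit4 among the HIF targets and Birc5 in the cell cycle list.

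Cell cycle genes, given because dividing T cells raise glycolysis, had a median log2 fold change of -0.42 over 15 tested genes. Of the 15, 14 were negative, beside 6897 of all 12720 tested genes. An unadjusted edgeR p under 0.05 was reached by 6, all lower in KO, beside 1161 of all tested genes lower at that value. For 7 of the 15 every KO library lay below every WT library, beside 11.5% of all tested genes. Birc5, a survival and mitosis gene, was the 1 called lower, beside 0.983% of all tested genes called lower, with 27.5 ± 1.87 CPM in KO and 61.8 ± 17.7 CPM in WT (mean ± SD, n = 3 each), which gave -1.17 on the log2 scale (SE 0.23, edgeR adjusted p = 0.0466). The Birc5 call was lost without any 1 library other than WT replicate 3, with log2 fold changes of -0.90 to -1.21 in those 5 fits, with the lung epithelial covariate (-1.03), and without robust estimation (adjusted p = 0.0573). Top2a (-0.60, SE 0.14, edgeR adjusted p = 0.0865) and Mki67 (-0.66, SE 0.20, edgeR adjusted p = 0.156) were lower in each KO library than in each WT library and did not pass, while DESeq2 called Top2a.

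Promoters of the enzymes differ in whether they hold ACGTG, 1 form of the core that HIF binds. ACGTG is contained in the E-box CACGTG that MYC with MAX can bind. The form GCGTG was not searched, so a promoter without ACGTG may still hold a HIF core. RefSeq promoters (GRCm38.p6) were matched for 10 of 10 enzymes, 17 start sites in all, and the 250 bases before each start were searched on both strands. ACGTG was present in at least 1 promoter of 5 of the 10 enzymes, Hk2, Aldoa, Pgk1, Pkm and Ldha, and of 18.5% of all 27025 genes. Counted by promoter, it was in 6 of the 17, and in 16.6% of all 32851. The Aldoa promoters among the 6 overlap and hold the same match. CACGTG was present in a promoter of 1 enzyme, Ldha, and of 6.86% of all genes (1 of the 17 promoters, and 6.02% of all). Among the called HIF targets, the promoters of Ddit4 and of Ero1l (named Ero1a by RefSeq) each held 1 ACGTG. The promoters of Hk2, Pgk1 and Ldha, enzymes that hold more than 1 such match, are shown beside that of Ddit4, which rose. They are written 5′ to 3′ up to the last base before the start, with ACGTG and CACGTG on either strand in capitals.
Hk2 (chr6:82774455-82774704, minus strand): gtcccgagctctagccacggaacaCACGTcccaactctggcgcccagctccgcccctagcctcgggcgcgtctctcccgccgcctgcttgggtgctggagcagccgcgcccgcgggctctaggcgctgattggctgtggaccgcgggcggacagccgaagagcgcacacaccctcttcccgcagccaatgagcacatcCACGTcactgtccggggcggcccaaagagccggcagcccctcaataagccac
Pgk1 (chrX:106186850-106187099, plus strand): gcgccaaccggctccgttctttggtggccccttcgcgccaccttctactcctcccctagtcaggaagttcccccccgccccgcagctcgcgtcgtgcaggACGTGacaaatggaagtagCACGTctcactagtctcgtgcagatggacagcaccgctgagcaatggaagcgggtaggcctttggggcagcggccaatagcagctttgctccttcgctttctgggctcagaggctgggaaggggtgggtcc
Ldha (chr7:46845554-46845803, plus strand): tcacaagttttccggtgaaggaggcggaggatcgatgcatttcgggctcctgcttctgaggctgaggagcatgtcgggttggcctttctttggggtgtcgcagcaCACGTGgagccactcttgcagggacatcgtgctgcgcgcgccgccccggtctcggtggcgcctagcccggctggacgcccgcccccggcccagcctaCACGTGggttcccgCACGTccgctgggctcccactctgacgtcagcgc
Ddit4 (chr10:59951771-59952020, minus strand): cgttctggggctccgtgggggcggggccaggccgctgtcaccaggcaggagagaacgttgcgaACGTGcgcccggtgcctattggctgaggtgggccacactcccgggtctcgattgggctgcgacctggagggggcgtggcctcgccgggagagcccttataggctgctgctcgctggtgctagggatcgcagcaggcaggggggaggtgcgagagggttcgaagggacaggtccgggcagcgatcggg

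Hk2 and Pgk1 each held 2 places with ACGTG, and Ldha held 3, of which 2 were CACGTG. Hk2, Pgk1 and Ldha had log2 fold changes of -1.42, -0.19 and -0.09 with none called, and Ddit4 one of 0.93. A match of letters is no sign that a factor binds there.

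Each enzyme's log2 CPM, centred on its mean over the 6 libraries, was averaged into a common profile. It ran close to the pattern of Pkm, whose root mean square distance from it was 0.0455 on the log2 scale, whereas Hk2 was farthest with 0.823, followed by Pfkl with 0.439 and Hk1 with 0.318. Among 10160 tested genes outside the lists with a mean of at least 5 CPM, the 5 closest were Ankrd44 (distance 0.0253), Fam53c (0.0260), Serbp1 (0.0325), Dscr3 (0.0334) and Mrps14 (0.0337). These 5 lay closer than any of the enzymes, so the profile is not particular to glycolysis. The common profile was lowest in KO replicate 2 and highest in WT replicate 2. With the median of the enzymes in place of the mean, WT replicate 1 was highest (0.11, against 0.08 in WT replicate 2).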

How the data were processed

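The deposited table holds raw counts of reads for each RefSeq transcript and the transcripts' lengths, per the file headers. The submitters' processing notes name bcl2fastq, TopHat2 2.2.1, Bowtie2 2.2.6 and mm10; how reads were counted, with which annotation, strand setting and rule for multiple matches, is not given in the sources used here. Lengths (another unit, bases) are also the authors' deposited values. All rows named a gene and 0 per-sample columns were left unused.

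Of 31682 rows, 1 was kept for each of 23992 symbols (highest total). The filter filterByExpr used a minimum count of 10 and a minimum total of 15. Counts were scaled by TMM and tested, KO against WT, with edgeR 4.0.16's quasi-likelihood F-test (robust) in R 4.3.3. Benjamini-Hochberg adjustment covered all 12720 tested genes, and a gene was called at an adjusted p under 0.05. Standard errors are the absolute log2 fold change over the square root of F. Alternatives were DESeq2 1.42.0, voom in limma 3.58.1, other scaling factors (DESeq2's, upper quartile, pan-T genes), no filter, non-robust estimation, a replicate block, the longest row per symbol, a covariate of lung epithelial share (log2), and leaving out each library. No block was used, since the meaning of the replicate numbers is not stated. Log2 CPM for profiles used a prior count of 2. A limit for a count of 0 is 3 counts; limits and exact intervals cover counting error only.

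The enzymes, the gene lists and the tests were chosen with earlier results of these data known, so they give no independent support. Named genes were the 10 enzymes, Gapdh, Pgam1, Slc2a1, Slc2a3, Hif1a, Myc and Crlf2, the 5 genes of closest profile, and from each linked list its called genes (up to 6), filled with those of smallest p up to 4; not all of these are described. Eno1b is not analysed here.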

Additional observations from a re-analysis of the deposited data

How the results depend on the processing

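The number of enzymes called was 0 in each alternative that kept all 6 libraries, and 0 to 1 when 1 library was left out, the 1 being Hk1 without WT replicate 3. Their median log2 fold change moved from -0.13 to -0.38 when scaled to pan-T genes, together with the median of all genes, and ran from -0.20 (without WT replicate 3) to -0.040 (without WT replicate 2) when 1 library was left out. The 221 calls over all genes became 863 with DESeq2's test, 123 with the replicate number as a block and 0 when a covariate held the lung epithelial share (1129 at an unadjusted p under 0.05), and 4 to 518 when 1 library was left out (4, 124 and 7 without KO replicates 1 to 3; 33, 22 and 518 without WT replicates 1 to 3). Of the other glycolysis genes DESeq2's test called 1, and leaving out a library called 0. The linked lists held 23 tested regulators, 7 transporters, 8 pentose phosphate, 14 pyruvate and 19 TCA cycle genes. They also held 17 side branch, 18 HIF target and 15 cell cycle genes. In these lists 3 genes were called in the full fit and 10 with DESeq2's test, beside 221 and 863 over all genes. The count was 1 without robust estimation (155 over all genes) and 1 with the replicate block (123). It was 0 with the lung covariate (0) and 0 to 6 when 1 library was left out (4 to 518). The cause was not tested.

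Deviations from the group means correlated at 0.08, -0.15 and -0.04 between KO and WT libraries of the same replicate number, for numbers 1 to 3. Only the replicates numbered 1 correlated best with their own number. With 3 libraries per group, these correlations cannot decide whether the numbers mark a shared batch. Under the replicate block no enzyme was called and their median was -0.13; the calls of Ero1l (0.91, adjusted p = 0.0885), Ddit4 (0.92, adjusted p = 0.110) and Birc5 (-1.13, adjusted p = 0.102) were lost, and Mxd1 was called (-1.03, adjusted p = 0.0360). Depth limits the low genes most, since a count of 0 in WT replicate 2 allows up to 2.05 CPM (3 counts), against 0.157 to 0.401 CPM elsewhere.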
